A study of Homo sapiens with 8 samples.

Results

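The genes described here are 10 enzymes of serine synthesis and one-carbon metabolism, with asparagine synthetase. They are PHGDH, PSAT1, PSPH, SHMT1, SHMT2, MTHFD1, MTHFD1L, MTHFD2, ALDH1L2 and ASNS. They form a list of names with no threshold behind it, but chosen with earlier results of these data known. All 10 were measured, out of 17958 genes on the array. Each gene stands for the probe set with the highest mean over the 8 arrays among those annotated with that symbol alone. The levels below are log2 signals per probe set, so a difference of 1 is a doubling.

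The samples were 8 whole-transcript arrays from 2 human lymphoma lines kept in RPMI medium with serum. The groups were KMH2 cells given glucosamine for 24 h (3 arrays), Ramos cells (2 arrays) and KMH2 cells without glucosamine (3 arrays). KMH2 was derived from Hodgkin lymphoma and Ramos from Burkitt lymphoma, and each stands for its disease as a single line. Glucosamine is an amino sugar that cells take up and feed into the hexosamine pathway. The sources used here do not give its dose. The labels call both Ramos arrays control, whereas the design text places 1 of them after glucosamine, so Ramos is treated here as a cell line with no treatment assigned, and each Ramos array is given by itself. The design text describes the KMH2 replicates as biological. For Ramos nothing says whether the arrays come from separate cultures, so tests against Ramos may measure technical spread.

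Serine is made from the glycolytic intermediate 3-phosphoglycerate in a short chain of reactions, and its side carbon is then passed to folate. Parallel folate cycles run in the cytosol and in mitochondria, and in most dividing cells the mitochondrial branch exports formate that the cytosol uses to build purines and thymidylate. Genes of serine synthesis, mitochondrial folate enzymes and asparagine synthetase are known to be switched on by ATF4, a transcription factor that acts when amino acids run short.

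B-cell and Hodgkin markers followed the labels. The 5 B-cell markers measured (MS4A1, CD79A, CD79B, PAX5 and CD22) lay between 10.11 and 11.81 in Ramos and between 3.55 and 7.51 in KMH2 control. The 5 Hodgkin markers (TNFRSF8, CCL17, FSCN1, TRAF1 and GATA3) summed to 31.55 to 32.42 in Ramos, against 43.65 to 43.97 in KMH2 control. After glucosamine all 5 Hodgkin markers fell, with sums of 40.90 to 41.33. So did 1 of 5 B-cell markers, 2 of 4 germinal centre markers and 1 of 4 myeloid markers. Over all probe sets 13.9% were called lower. The part of these marker falls in the results below was not tested. None of the 4 T-cell, 4 fibroblast and 2 erythroid markers passed after glucosamine. In the KMH2 arrays the T-cell genes CD3D and CD3G had signals of 7.95 to 8.27 and 6.82 to 8.17. The other T-cell markers, CD3E and CD8A, lay between 4.08 and 5.35. Myeloid CD14 and ITGAM had 6.10 to 7.68 and 7.16 to 7.54, while LYZ and CD163 lay between 3.72 and 3.95. CD3D, CD3G, CD14 and ITGAM were lower in Ramos (-2.50, -2.67, -1.96 and -1.69), and CD8A and LYZ higher (0.27 and 0.64). Summed signals of the T-cell markers were 24.44 to 25.27 after glucosamine and 25.17 to 25.61 in KMH2 control.

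After glucosamine, 6 of the 10 genes rose, 2 fell and 2 stayed short of the threshold. Those that rose were ASNS, PSAT1, PHGDH, MTHFD2, SHMT2 and MTHFD1L, and those that fell were the cytosolic enzymes MTHFD1 and SHMT1. Rises were 1.21- to 2.80-fold and falls 1.45- and 1.57-fold. Over all 19181 probe sets tested, 11.9% were called higher, 13.9% lower and 25.8% in either direction, at an adjusted p under 0.05 in limma. The arrays of the groups did not overlap in 8 of the 10 genes, 6 upward and 2 downward, beside 20.3% upward, 20.6% downward and 40.9% in either direction over all probe sets. The median difference of the 10 genes was 0.27 on the log2 scale, beside 0.01 over all probe sets, and their median size was 0.54 beside 0.11. In bulk cultures, more RNA per cell and more cells with the RNA cannot be told apart.

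**Figure D1:**
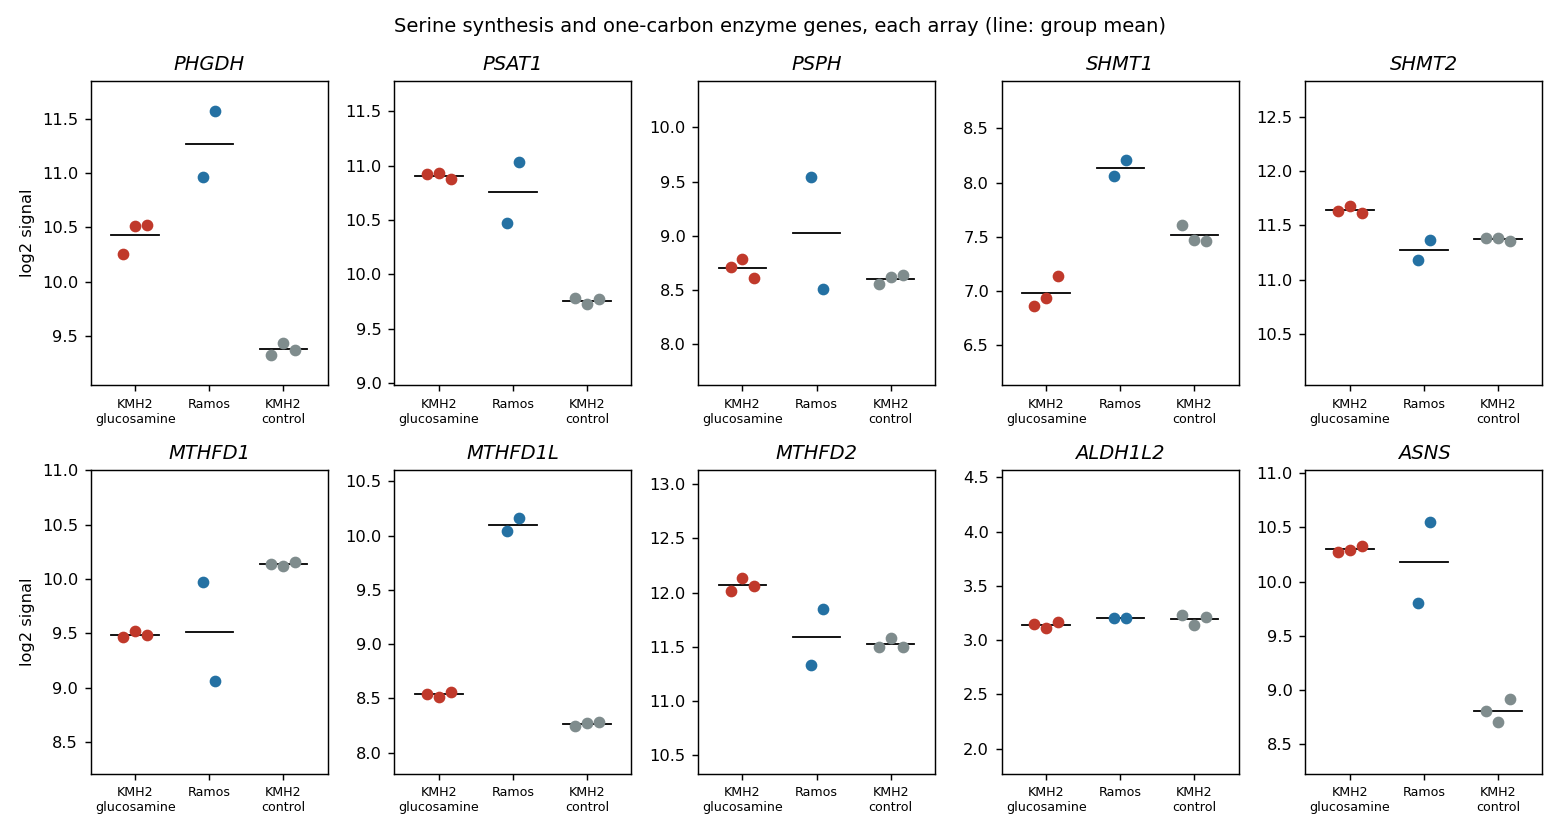
Each point is the log2 signal of 1 array, by gene, for KMH2 glucosamine (3 arrays), Ramos (2 arrays) and KMH2 control (3 arrays), with a line at the group mean. Vertical axes cover the same number of log2 units but are centred gene by gene, so heights cannot be compared between panels. The glucosamine points of PHGDH, PSAT1, SHMT2, MTHFD1L, MTHFD2 and ASNS lie above all control points, those of SHMT1 and MTHFD1 below them.

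Asparagine synthetase, which makes asparagine from aspartate with the amide nitrogen of glutamine, differed the most of the 10. ASNS signals were 10.27, 10.29 and 10.33 in glucosamine arrays, against 8.81, 8.71 and 8.92 in control arrays. The groups did not overlap, and the lowest treated array stood more than 1 unit above the highest control. The difference was 1.49 ± 0.06 (SE; 95% confidence interval 1.34 to 1.64), a 2.80-fold rise (limma adjusted p = 1.14e-05).

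PHGDH, which opens serine synthesis by oxidising 3-phosphoglycerate, had signals of 10.26, 10.52 and 10.52 after glucosamine, against 9.33, 9.44 and 9.37 in control. Treated arrays were all higher, replicate 1 being the lowest of them. The difference was 1.06 ± 0.08 (SE), a 2.08-fold rise (limma adjusted p = 1.10e-04).

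PSAT1, the aminotransferase of the next step, had 10.92, 10.93 and 10.88 after glucosamine, against 9.78, 9.72 and 9.77 in control. Replicates of PSAT1 lay closer together than those of PHGDH, and the groups stood clear of each other. It rose 2.22-fold (limma adjusted p = 1.14e-05; 95% confidence interval of the log2 difference 1.04 to 1.27).

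PSPH, the phosphatase that releases serine at the end of the chain, did not follow the steps before it. Its signals were 8.71, 8.79 and 8.61 after glucosamine, against 8.56, 8.62 and 8.64 in control, and the groups overlapped. The difference was 0.10 ± 0.06 (SE), with a 95% confidence interval of -0.04 to 0.24 (limma adjusted p = 0.298), whose upper end lies below the interval of PSAT1. Another probe set of PSPH gave -0.02 ± 0.05 (SE, limma adjusted p = 0.821). RefSeq's gene table lists 1 pseudogene named after PSPH, and probe sets can capture RNA of such copies.

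The promoters of the 3 genes that rose by over 2-fold are printed first, followed by those of MTHFD1L and MTHFD1, because these 5 show how unevenly a pair of searched motifs is spread over genes that moved. Windows run from 250 bases before to 50 bases after the annotated start, from RefSeq on GRCh38.p14, and 7 of the 10 genes had an entry. Capitals mark TGATGNAA, the core of the composite element bound by ATF4 with C/EBP partners, and CACGTG, the E-box bound by MYC and other factors. The first was searched on both strands, the second is its own reverse complement, and no matches of the pair overlapped here.
ASNS, chr7:97872359-97872658, minus strand: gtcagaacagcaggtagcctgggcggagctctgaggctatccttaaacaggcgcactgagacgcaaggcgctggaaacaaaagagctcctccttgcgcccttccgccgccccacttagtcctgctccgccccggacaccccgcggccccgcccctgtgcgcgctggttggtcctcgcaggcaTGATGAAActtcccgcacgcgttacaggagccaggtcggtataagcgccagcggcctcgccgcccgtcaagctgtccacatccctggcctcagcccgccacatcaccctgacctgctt
PSAT1, chr9:78296875-78297174, plus strand: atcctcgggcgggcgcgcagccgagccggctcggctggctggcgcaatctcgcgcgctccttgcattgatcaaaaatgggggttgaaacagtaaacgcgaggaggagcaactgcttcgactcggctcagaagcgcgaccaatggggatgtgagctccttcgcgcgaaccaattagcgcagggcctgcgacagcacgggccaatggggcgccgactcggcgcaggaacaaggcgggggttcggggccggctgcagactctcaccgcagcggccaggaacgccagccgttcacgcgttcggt
PHGDH, chr1:119711684-119711983, plus strand: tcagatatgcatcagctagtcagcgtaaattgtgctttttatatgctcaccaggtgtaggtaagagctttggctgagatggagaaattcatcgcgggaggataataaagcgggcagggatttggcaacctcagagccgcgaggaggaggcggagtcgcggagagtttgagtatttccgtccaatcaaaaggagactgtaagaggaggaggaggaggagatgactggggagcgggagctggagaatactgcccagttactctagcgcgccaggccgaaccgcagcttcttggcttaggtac
MTHFD1L, chr6:150866236-150866535, plus strand: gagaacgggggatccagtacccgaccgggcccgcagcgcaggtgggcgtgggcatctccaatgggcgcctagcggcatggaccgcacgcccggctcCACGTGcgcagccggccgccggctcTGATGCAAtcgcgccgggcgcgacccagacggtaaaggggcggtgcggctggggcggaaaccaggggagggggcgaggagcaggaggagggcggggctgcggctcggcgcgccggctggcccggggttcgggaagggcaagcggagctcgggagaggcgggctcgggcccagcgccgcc
MTHFD1, chr14:64388103-64388402, plus strand: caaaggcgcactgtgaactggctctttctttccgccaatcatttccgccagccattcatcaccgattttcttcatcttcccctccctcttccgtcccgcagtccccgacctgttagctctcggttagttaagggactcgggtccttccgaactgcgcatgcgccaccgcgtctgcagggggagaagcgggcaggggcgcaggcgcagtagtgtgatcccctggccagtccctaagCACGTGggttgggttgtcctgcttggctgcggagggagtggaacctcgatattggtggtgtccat

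In the ASNS window TGATGAAA began at -68, counted from the annotated start, and the ASNS window at another start held no match. In MTHFD1L, which has 4 windows at different starts, TGATGCAA began at -129 and CACGTG at -154 in the window shown, and the same strings recur at other distances in windows that overlap it. In MTHFD1 CACGTG began at -15. The windows of PSAT1, PHGDH, MTHFD2 and SHMT1 held neither string. TGATGNAA occurred in some window of 2 of 7 genes, beside 4.46% of the 27305 genes with an entry, and CACGTG in 2 of 7, beside 8.77%. Per window the strings occurred in 3.62% and 7.26% of all 35116. A match describes the letters only, and a window without one says nothing about sites elsewhere.

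SHMT1 and SHMT2 are the cytosolic and mitochondrial serine hydroxymethyltransferases, which split serine into glycine and a one-carbon unit on tetrahydrofolate. SHMT2 signals were 11.64, 11.68 and 11.62 after glucosamine, against 11.38, 11.38 and 11.36 in control. SHMT1 signals were 6.87, 6.93 and 7.14 after glucosamine, against 7.61, 7.47 and 7.46 in control. The groups were apart in both genes, in opposite directions. SHMT2 rose by 0.27 ± 0.05 (SE, limma adjusted p = 0.00467), a small 1.21-fold difference measured with tight replicates. SHMT1 fell by 0.53 on the log2 scale (SE 0.08, limma adjusted p = 0.00219), 1.45-fold.

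The mitochondrial branch goes on with MTHFD2, a dehydrogenase and cyclohydrolase, and MTHFD1L, the synthetase that releases formate. MTHFD2 signals were 12.02, 12.13 and 12.06 after glucosamine, against 11.50, 11.58 and 11.50 in control. MTHFD1L signals were 8.54, 8.52 and 8.56 after glucosamine, against 8.25, 8.27 and 8.28 in control. Treated arrays were higher throughout, by about the same amount in each replicate. MTHFD2 rose 1.46-fold (log2 difference 0.55 ± 0.06, SE, limma adjusted p = 3.36e-04), and a second MTHFD2 probe set gave 0.59 ± 0.05 (SE). RefSeq lists 7 pseudogenes named after MTHFD2, 5 after ASNS, 4 after PSAT1 and 1 each after SHMT1 and MTHFD1, so these signals may include RNA of copies. MTHFD1L rose 1.21-fold (0.27 ± 0.05, SE, limma adjusted p = 0.00431).

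MTHFD1, the cytosolic protein that carries all 3 of these folate activities, moved the other way. Its signals were 9.46, 9.52 and 9.48 after glucosamine, against 10.14, 10.12 and 10.16 in control. Treated arrays all lay well below the lowest control. MTHFD1 fell by 0.65 on the log2 scale (SE 0.05, limma adjusted p = 1.05e-04), 1.57-fold. With the spread shared over all 8 arrays, in which the Ramos arrays of this gene lie far apart, the adjusted p was 0.0708 (range over 15 alternatives 1.57e-05 to 0.0708).

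ALDH1L2, the mitochondrial enzyme that oxidises formyl-tetrahydrofolate to CO2 with gain of NADPH, was at the bottom of the scale. Its signals were 3.15, 3.11 and 3.17 after glucosamine, against 3.23, 3.14 and 3.21 in control, and only 2.03% of tested probe sets had a lower mean. The difference was -0.05 ± 0.05 (SE, limma adjusted p = 0.518). At such signals a fall could hardly be seen, so the gene is better called dim on this array than unaltered.

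Whether paired enzymes moved unequally was tested within arrays, as the log2 signal of the mitochondrial gene minus that of the cytosolic one. For MTHFD2 minus MTHFD1 the glucosamine arrays stood 1.17, 1.22 and 1.20 above the control mean, while control arrays stood at -0.03, 0.08 and -0.05. The shift was 1.20 ± 0.03 in glucosamine arrays, with an SD of 0.07 in control arrays (SD, n = 3 per group). For MTHFD1L minus MTHFD1 it was 0.92, and for SHMT2 minus SHMT1 it was 0.80. In these 3 pairs the groups stood far apart. For ALDH1L2 minus ALDH1L1, the cytosolic counterpart, the shift was -0.12, with glucosamine arrays at -0.10 to -0.13 just below control arrays spread from -0.10 to 0.19. ALDH1L2 is so dim that a fall could hardly be seen, so this pair says little on whether its enzymes moved apart. In every one of the 4 pairs the two-sided exact permutation test gave p = 0.1 (0.1 after Benjamini-Hochberg over the 4), the smallest that 3 arrays against 3 allow, so this test cannot pass the threshold. For the first 3 pairs that outcome was fixed beforehand, since their genes had each separated in opposite directions. The pairs of MTHFD2 and MTHFD1L also share MTHFD1, so they are not separate observations. A further mitochondrial enzyme, MTHFD2L, was in no pair and fell, as described with the folate genes.

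**Figure D2:**
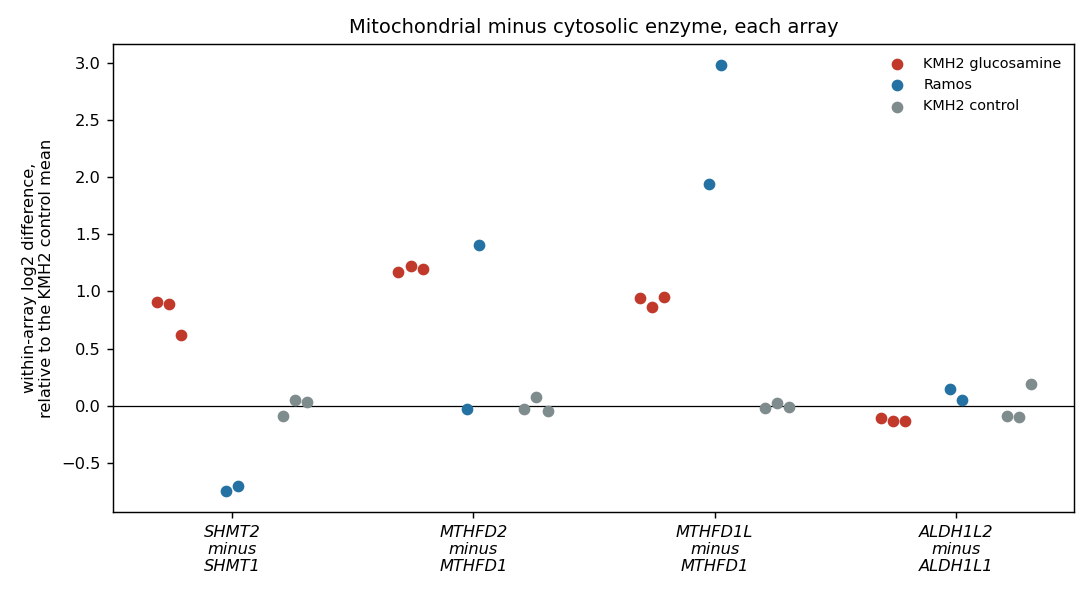
Each point is 1 array, and the vertical axis gives the log2 signal of the mitochondrial gene minus that of the cytosolic gene in that array, relative to the KMH2 control mean. Glucosamine arrays lie at 0.62 to 0.91, 1.17 to 1.22 and 0.86 to 0.95 in the first 3 pairs, above all control arrays, and the 2 Ramos arrays differ from each other in the pairs that include MTHFD1.

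Ramos was set against KMH2 control in the same genes, which asks how the lines differ at this pathway. PHGDH, MTHFD1L, ASNS, PSAT1 and SHMT1 were higher in Ramos, MTHFD1 was lower, and PSPH, SHMT2, MTHFD2 and ALDH1L2 did not pass. That is 5 higher and 1 lower of 10, beside 22.7% and 21.2% of all probe sets called in those directions (43.8% in either). Ramos arrays did not overlap those of KMH2 control in 6 of the 10 genes, 5 upward and 1 downward, beside 37.8% upward, 26.3% downward and 64.1% in either direction over all probe sets. The median difference was 0.52 for the 10 genes and 0.06 over all probe sets. Both comparisons use the same 3 control arrays. For each gene the Ramos fit shares 1 spread over the 3 groups, although the SD was larger in Ramos than in control for every member but ALDH1L2. SDs in Ramos and control were 0.43 and 0.06 in PHGDH, 0.40 and 0.03 in PSAT1, 0.53 and 0.11 in ASNS, and 0.65 and 0.02 in MTHFD1. In such genes the SE, intervals and p values given for Ramos are likely too small.

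PHGDH was 10.97 and 11.57 in Ramos replicates 1 and 2, against the control signals of 9.33 to 9.44. It was higher by 1.89 ± 0.17 (SE), or 3.71-fold (limma adjusted p = 3.04e-05). MTHFD1L was 10.04 and 10.16 in Ramos, against 8.25 to 8.28 in control, 3.57-fold higher (limma adjusted p = 1.11e-07). The pair of Ramos arrays agreed closely in MTHFD1L and less so in PHGDH, and both genes also stood above every glucosamine array.

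ASNS was 9.80 and 10.55 in Ramos, against 8.71 to 8.92 in control, a 2.58-fold difference (limma adjusted p = 4.38e-04). PSAT1 was 10.47 and 11.04, against 9.72 to 9.78, a 2.00-fold difference (limma adjusted p = 5.60e-04). In ASNS and PSAT1 the Ramos arrays straddled the glucosamine arrays, so Ramos and treated KMH2 were not separate. SHMT1 was 8.06 and 8.20 in Ramos, against 7.46 to 7.61 in control, higher by 0.62 ± 0.10 (SE, limma adjusted p = 0.00121), where glucosamine gave a fall. For SHMT1 the order was Ramos, KMH2 control, KMH2 glucosamine, with no overlap between neighbours.

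For MTHFD1, PSPH, MTHFD2 and SHMT2 the call changed with the Ramos array left out. With 1 Ramos array left, its spread is assumed to be that of the KMH2 arrays, so p values without a Ramos replicate, here and below, compare that single array and carry no error of the line. MTHFD1 was 9.97 and 9.06 in Ramos, both below the control signals of 10.12 to 10.16, a difference of -0.62 ± 0.22 (SE, limma adjusted p = 0.0475). Without Ramos replicate 2 that difference was -0.16 (adjusted p = 0.0887), and without Ramos replicate 1 it was -1.08 (3.31e-06). The MTHFD1 call was also lost without any 1 of the KMH2 arrays, control replicates (0.101 for replicate 1, 0.101 for replicate 2, 0.109 for replicate 3) and glucosamine replicates (0.0717, 0.0742 and 0.0748) alike. Its alternatives spanned adjusted p values of 3.31e-06 to 0.119.

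PSPH was 9.54 and 8.51 in Ramos, 1 array above and 1 below the control signals of 8.56 to 8.64, and the difference of 0.42 ± 0.24 (SE) did not pass (limma adjusted p = 0.203). Without Ramos replicate 2 it was 0.93 (adjusted p = 3.78e-05), and without Ramos replicate 1 it was -0.09 (0.437), these being the ends of its range. MTHFD2 was 11.33 and 11.85 in Ramos, on either side of the control signals of 11.50 to 11.58, with a difference of 0.07 ± 0.13 (SE, limma adjusted p = 0.725). Without Ramos replicate 1 it was 0.32 (adjusted p = 0.00905), and without Ramos replicate 2 it was -0.19 (0.0838), over a range of 0.00905 to 0.832. SHMT2 was 11.18 and 11.36 in Ramos, and the difference of -0.10 ± 0.07 (SE, limma adjusted p = 0.283) passed only without Ramos replicate 2 (-0.20, adjusted p = 0.0469, range 0.0469 to 0.911). ALDH1L2 was 3.20 in both Ramos arrays, as dim as in KMH2.

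The gap between the Ramos arrays was wide in this group of genes. Replicate 2 and replicate 1 differed by at least 0.5 in 6 of the 10 genes, beside 14.7% of all probe sets, a limit set after the values were seen. Replicate 2 was higher by 0.75 in ASNS, 0.60 in PHGDH, 0.57 in PSAT1 and 0.51 in MTHFD2. It was lower than replicate 1 in PSPH (-1.02) and MTHFD1 (-0.92). SHMT2, SHMT1, MTHFD1L and ALDH1L2 differed by 0.19, 0.15, 0.12 and 0.00. These are single arrays with no replicate, so the gap has no test, and no treatment is read from it.

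**Figure D3:**
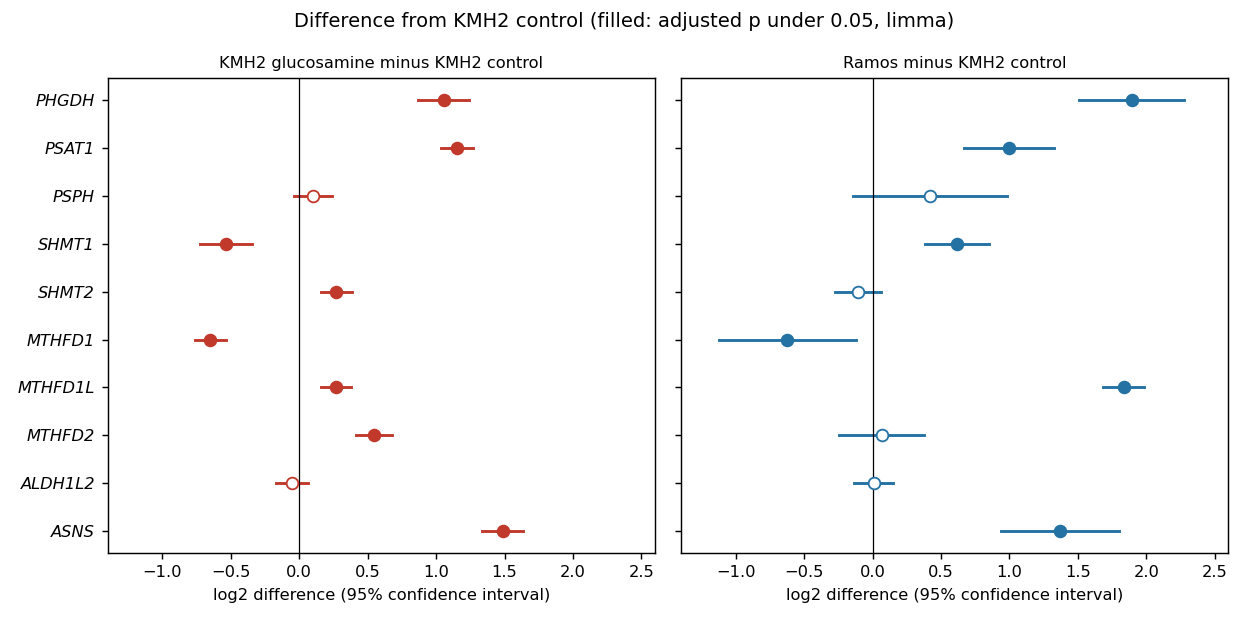
Points are log2 differences from KMH2 control with 95% confidence intervals from limma, for KMH2 glucosamine on the left and Ramos on the right, and filled points passed the adjusted threshold. Glucosamine intervals are narrow, from ASNS at 1.49 to MTHFD1 at -0.65, and the Ramos intervals are wide for PSPH (-0.14 to 0.98) and MTHFD1 (-1.12 to -0.12).

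By group mean, glucosamine-treated KMH2 cells were highest in PSAT1, SHMT2, MTHFD2 and ASNS, and Ramos in PHGDH, PSPH, SHMT1, MTHFD1L and ALDH1L2. KMH2 control was highest in MTHFD1, clear of both other groups. Treated cells and Ramos overlapped in MTHFD1, PSAT1, ASNS and PSPH, and the 3 groups of PSPH and of ALDH1L2 each overlapped with their neighbours. In SHMT2 and MTHFD2 it was KMH2 control and Ramos that overlapped, below the treated arrays.

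Other genes of these pathways were counted in 5 lists, chosen with earlier results of these data known, of which 67 of 85 genes had a probe set of their own. After glucosamine 7 of the 67 rose, 14 fell and 46 did not pass, with a median difference of -0.01. These are shares of 10.4% and 20.9%, beside 11.9% and 13.9% of all probe sets. Without control replicate 3 the count that rose was 4.

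In the folate list 7 of 18 genes fell (38.9%, beside 13.9% of all probe sets), 1 rose and 10 did not pass, and the median difference was -0.03, beside 0.01 over all probe sets. FPGS, which adds the glutamate tail that keeps folates in the cell, fell by 0.70 on the log2 scale (limma adjusted p = 4.07e-04). DHFR2, a relative of dihydrofolate reductase, fell by 0.64 (3.70e-04) and SLC19A1, the reduced folate carrier, by 0.33 (0.00204). MTHFD2L, the mitochondrial isozyme of MTHFD2, is named after its values were seen. Its signals were 6.33, 6.33 and 5.94 after glucosamine, against 6.51, 6.68 and 6.81 in control, and it fell by 0.47 (limma adjusted p = 0.0224), the opposite direction to MTHFD2. MTHFD2L did not pass without control replicate 2 (0.0738) or 3 (0.0872), with the spread shared over all 8 arrays (0.0852) or with all probe sets tested (0.0566), its alternatives spanning 0.00251 to 0.0872. The mean over its probe sets gave -0.29. DMGDH, a mitochondrial dehydrogenase of choline breakdown, rose by 0.28 from a dim level (adjusted p = 0.0158). DMGDH did not pass once control replicate 3 was left out (adjusted p = 0.0632, range 0.00699 to 0.595).

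In the methionine cycle 1 of 14 genes rose, 2 fell and 11 did not pass. These shares were 7.14% and 14.3%, beside 11.9% and 13.9% of all probe sets. MAT2A, which makes S-adenosylmethionine, fell by 0.69 (limma adjusted p = 0.00117), and SRM, spermidine synthase, fell by 0.31 (0.0112). SRM did not pass with the spread shared over all 8 arrays (0.116, range 0.00325 to 0.116). PEMT, which methylates phosphatidylethanolamine, rose by 0.23 (limma adjusted p = 0.0313). The PEMT call was lost without control replicate 1 (0.0519), 2 (0.0538) or 3 (0.102) and without glucosamine replicate 2 (0.0851) or 3 (0.108). The PEMT alternatives spanned 0.00684 to 0.119.

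Among 16 genes that carry or use serine and glycine, 2 rose, 2 fell and 12 did not pass. Each direction had 12.5%, beside 11.9% higher and 13.9% lower over all probe sets. SERINC1, a membrane protein of the serine incorporator family, rose by 0.51 (limma adjusted p = 0.00112), and SPTLC2, a subunit of the palmitoyltransferase that starts sphingolipids from serine, rose by 0.23 (0.0122). PTDSS1, which exchanges serine into phosphatidylserine, fell by 0.48 (limma adjusted p = 0.00185), and SFXN1, a mitochondrial serine carrier, fell by 0.23 (0.0156). SPTLC2 lost its call without control replicate 3 (0.0505) or glucosamine replicate 3 (0.0532), its alternatives spanning 0.00316 to 0.306. SFXN1 lost its call without control replicate 1 (0.0550) or 3 (0.0552) or glucosamine replicate 3 (0.0596), its alternatives spanning 0.00403 to 0.214. Of 5 genes tied to glycine cleavage, LIAS, lipoyl synthase, fell by 0.57 (limma adjusted p = 3.40e-04) and 4 did not pass. That is 20% lower, beside 13.9% of all probe sets.

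Enzymes of aspartate, glutamate and proline gave 3 rises and 2 falls among 14, with 9 not passing. The shares were 21.4% and 14.3%, beside 11.9% and 13.9% of all probe sets. PYCR1 and ALDH18A1, both of mitochondrial proline synthesis, rose by 0.36 and 0.23, and the cytosolic aminotransferase GOT1 rose by 0.25 (limma adjusted p 0.00416, 0.0102 and 0.00579 in that order). PYCR3, the cytosolic enzyme of proline synthesis, fell by 0.62 (limma adjusted p = 2.51e-04), and ASL, argininosuccinate lyase, fell by 0.47 (limma adjusted p = 0.0105). With the spread shared over all 8 arrays, SERINC1 (limma adjusted p = 0.0974), GOT1 (0.178) and ALDH18A1 (0.349) did not pass.

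**Figure D4:**
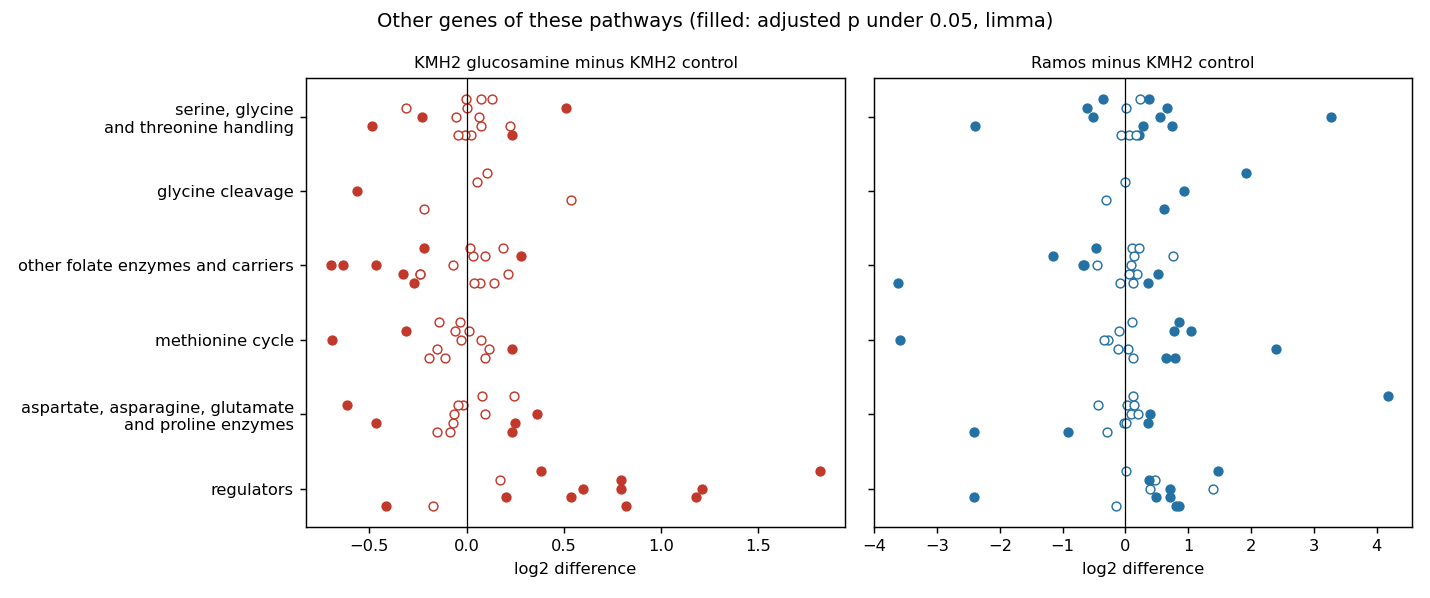
Each point is 1 gene, placed by its log2 difference from KMH2 control (KMH2 glucosamine left, Ramos right, with different horizontal scales) and by its list, the height within a list carrying no meaning. Filled points passed the adjusted threshold, among them 7 of 18 folate genes below 0 (that of ATIC lies under an open point) and 10 of 13 regulators above 0 after glucosamine.

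Regulators known to act on these enzymes formed a further list of 13 measured genes, also chosen with earlier results of these data known. Among them 10 rose after glucosamine, 1 fell and 2 did not pass. Shares were 76.9% higher and 7.69% lower, beside 11.9% and 13.9% of all probe sets. ATF4 signals were 10.89, 10.69 and 10.77 after glucosamine, against 10.14, 9.85 and 9.90 in control, a rise of 0.82 (limma adjusted p = 4.40e-04). All treated ATF4 arrays were above all control arrays. A dimmer ATF4 probe set disagreed, with 8.84 ± 0.14 after glucosamine and 8.74 ± 0.14 in control (SD, n = 3 each) and a difference of 0.10 that did not pass (limma adjusted p = 0.495). Genes that ATF4 is known to induce or whose proteins pair with it rose too, DDIT3 by 1.82, TRIB3, a pseudokinase that restrains ATF4, by 1.21, ATF5 by 1.18, CEBPB by 0.80 and CEBPG by 0.79 (limma adjusted p 2.74e-05 to 4.76e-04). The kinases of the stress response gave 0.60 for EIF2AK3 (PERK), 0.20 for EIF2AK1 (HRI) and 0.17 for EIF2AK4 (GCN2), with adjusted p of 2.04e-04, 0.0182 and 0.119. NFE2L2, the antioxidant factor NRF2, rose by 0.54 (adjusted p = 3.60e-04) and the histone demethylase KDM4C by 0.38 (adjusted p = 0.00581). EHMT2, the histone methyltransferase G9a, fell by 0.42 (adjusted p = 0.00637). With the spread shared over all 8 arrays, TRIB3 (limma adjusted p = 0.154, range 2.93e-06 to 0.154) and EHMT2 (0.0507, range 0.00221 to 0.0507) did not pass.

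MYC, which is known to drive folate and nucleotide genes, had 9.11, 9.07 and 9.06 after glucosamine, against 9.33, 9.17 and 9.27 in control. The treated arrays were lower without overlap, but the difference of -0.17 did not pass (limma adjusted p = 0.0651, range 0.0363 to 0.539). The EIF2AK1 call was lost without control replicate 1 (0.0576), 2 (0.0513) or 3 (0.0587) or glucosamine replicate 3 (0.0735), its alternatives spanning 0.00435 to 0.0735. EIF2AK4 passed once glucosamine replicate 1 was left out (0.0144), its alternatives spanning 0.0144 to 0.297.

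In Ramos, 21 of the 67 pathway genes were higher than in KMH2 control, 12 were lower and 34 did not pass, shares of 31.3% and 17.9% beside 22.7% and 21.2% of all probe sets. CBS, which joins homocysteine to serine, was 8.84 and 8.72 in Ramos, against 5.44 to 5.55 in control, higher by 3.27 (limma adjusted p = 1.14e-08). ASS1, argininosuccinate synthase, was 8.91 and 10.44, against 5.31 to 5.64 (4.18, adjusted p = 3.20e-05). QDPR, which recycles tetrahydrobiopterin, was 3.75 and 3.67 in Ramos, against 7.31 to 7.34 in control (-3.62, adjusted p = 2.51e-09), the Ramos signals being dim, so that the size of this difference is uncertain. SMS, spermine synthase, was 7.33 and 6.14, against 10.27 to 10.37 (-3.59, adjusted p = 1.39e-05). These 4 genes were far apart between the lines, and none of CBS, ASS1 and SMS passed after glucosamine in KMH2. QDPR fell after glucosamine (-0.27, limma adjusted p = 0.00638), the same direction as in Ramos.

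Higher in Ramos were also PTDSS1 (0.75) and PTDSS2 (0.54), the lipoylation genes LIPT2 (1.92) and LIAS (0.94), the dehydrogenase gene DLD (0.61), ATIC of purine synthesis (0.52), and in the methionine cycle AMD1 (1.04), MTRR (0.78) and AHCY (0.64). Lower in Ramos were SERINC5 (-2.40), SFXN3 (-0.62), SFXN1 (-0.52), MTHFS (-1.16), DHFR2 (-0.66), the glutamine synthetase gene GLUL (-2.41) and OAT (-0.91). Limma adjusted p for these 16 genes ran from 3.80e-06 (SERINC5) to 0.00648 (SFXN1). SFXN1 was -0.31 without Ramos replicate 2. The folate hydrolase gene GGH (0.35, adjusted p = 0.0425), GOT1 (0.36, 0.0375) and PYCR1 (0.39, 0.0152) passed narrowly in limma.

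GGH and GOT1 lost their calls without any 1 of the 6 KMH2 arrays (adjusted p 0.0533 to 0.115 for GGH and 0.0562 to 0.0906 for GOT1). GGH was 0.15 without Ramos replicate 1 (adjusted p = 0.216) and 0.56 without Ramos replicate 2, over a range of 8.84e-04 to 0.216. GOT1 was 0.58 without Ramos replicate 1 and 0.13 without Ramos replicate 2 (adjusted p = 0.144), over a range of 1.11e-04 to 0.144. PYCR1 was not called without control replicate 3 (0.0534) or Ramos replicate 2 (0.23, adjusted p = 0.0671), over a range of 0.00107 to 0.0671.

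Of the 13 regulators, 7 were higher in Ramos, 1 lower and 5 did not pass, shares of 53.8% and 7.69% beside 22.7% and 21.2% of all probe sets. ATF4 (0.86), DDIT3 (1.48), EIF2AK3 (0.72), EIF2AK1 (0.49), EIF2AK4 (0.37), NFE2L2 (0.72) and MYC (0.81) were higher, with limma adjusted p from 1.63e-04 to 0.00949. The ATF4 value is that of the brighter probe set, and it ran from 0.63 to 1.09 over the alternatives. Its dimmer probe set, which disagreed after glucosamine, is not given here for Ramos. MYC was 10.40 and 9.72 in Ramos, against 9.17 to 9.33 in control, and the MYC difference was 0.47 without Ramos replicate 1. ATF5 was lower by far, with 7.58 and 7.67 in Ramos against 9.93 to 10.11 in control (-2.41, adjusted p = 6.01e-08). EIF2AK4 did not pass with array weights (adjusted p = 0.0586, range 0.00462 to 0.0586). TRIB3 was 7.40 and 9.73 in the Ramos arrays and did not pass (limma adjusted p = 0.0671), nor did CEBPB (0.0738), CEBPG (0.0813), EHMT2 (0.375) or KDM4C (0.994).

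Without Ramos replicate 1, TRIB3 (2.56, adjusted p = 1.76e-07), CEBPB (0.69, 1.37e-04), CEBPG (0.86, 5.77e-05) and EHMT2 (-0.33, 0.0407) passed, on that single array. Without Ramos replicate 2 the differences were 0.23 for TRIB3, 0.0861 for CEBPB, 0.0819 for CEBPG and 0.035 for EHMT2, and none passed (adjusted p 0.0978, 0.438, 0.499 and 0.834 in that order). Their ranges over the alternatives were 1.76e-07 to 0.150 for TRIB3, 1.37e-04 to 0.438 for CEBPB, 5.77e-05 to 0.499 for CEBPG and 0.0407 to 0.834 for EHMT2.

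The genes whose signals ran most nearly parallel to these enzymes were looked up over the 8 arrays, among 12967 genes with a mean signal of at least 5. ASNS and PSAT1 ran closely parallel (r = 0.996, Pearson). The genes nearest to PSAT1 were the cystine transporter gene SLC7A11 (r = 0.998), then ASNS (0.996) and CCNG1 (0.996). For MTHFD1 they were NCAPD3, a condensin subunit (r = 0.998), POFUT1 (0.994) and SLC25A12 (0.990), and for PHGDH they were DYM (0.997), GARS1, glycyl-tRNA synthetase (0.992), and KLHL24 (0.991). MTHFD2 was most like OSBP (r = 0.991), SHMT2 most like ZNF460 (0.990), SHMT1 most like SNX17 (0.990), MTHFD1L most like MTFR1 (0.999), PSPH most like CAMSAP1 (0.974) and ALDH1L2 most like FAM83A (0.958). The mean of the 10 standardised profiles ran closest to PFDN4 (r = 0.989), RPL30 (0.987), MRPS5 (0.987), ISCA1 (0.983) and RINT1 (0.982). That mean gives dim ALDH1L2 the same weight as any other member. It also mixes members that ran against each other, such as MTHFD1 and PSAT1 (r = -0.92). With 8 arrays in 3 groups such values follow mainly the group means, and they are given as a description.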

How the data were processed

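Per the labels' protocols, biotin-labelled total RNA was hybridised to strips of the Affymetrix array HuGene-1_1-st-v1. The authors deposited log2 signals for 33297 probe sets on 8 arrays (1.94 to 13.21, array medians 5.62 to 5.68). The sources used here do not give their summarisation or normalization, and no depth applies to arrays, whose number limits the precision.

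Names came from the platform annotation of 2016. Those with 1 symbol (19181, for 17958 genes) were tested with limma 3.58.1 in R 4.3.3 (lmFit, eBayes, two-sided, Benjamini-Hochberg over all of them, threshold 0.05). Glucosamine used the 6 KMH2 arrays, and Ramos used all 8 in 3 groups. The fits were tested on simulated data. The members and lists were chosen with earlier results of these data known. Named genes were the 10 members, the listed regulators, up to 3 called genes per list and direction by smallest p, and those most alike in profile over the arrays (5 for the mean profile, 3 for each member, not all printed). MTHFD2L was added after its values were seen.

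By the design text the KMH2 replicates are pairs, untreated and treated. Deviations from group means correlated by 0.46, 0.23 and 0.23 between same-numbered KMH2 arrays. Between differently numbered ones the values ran from -0.37 to 0.25, so for replicates 2 and 3 they do not single out the pairs. A paired fit was an alternative, beside other normalization, filters, probe set choices, variance models and leaving out arrays.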

Additional observations from a re-analysis of the deposited data

Results flagged for a closer look

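Probe sets that list several symbols were not used above, and 4 of them name MTHFD1L together with 2 uncharacterised loci. All 4 were higher in both Ramos arrays than in every KMH2 control array, which was the condition for listing them here. Over all 19181 probe sets tested, 37.8% stood higher in that way. The Ramos means were 7.13, 7.16, 7.16 and 7.22, against 6.43, 6.55, 6.55 and 6.49 in KMH2 control, for differences of 0.70 (probe set 8155563), 0.61 (8155630), 0.61 (8161377) and 0.73 (8161484) on the log2 scale. Probe sets 8155630 and 8161377 hold the same values on every array, so the 4 are not separate measurements. The probe set annotated with MTHFD1L alone differed by 1.83 between Ramos and KMH2 control. Glucosamine arrays overlapped control arrays in all 4, with differences from -0.0022 to 0.05.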

How the results depend on the processing

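Across 15 alternatives for glucosamine, 6 members were called higher in each, and 2 lower in each but 1, the fit in which all 8 arrays share the spread (1 lower, MTHFD1 being lost). In that fit other pathway genes called numbered 1 higher and 9 lower, in place of 7 and 14, and probe sets called 998 higher and 1179 lower, in place of 2285 and 2671. The paired fit with a replicate block called 6 members higher and 2 lower and changed no call of a named gene. It called 10 other pathway genes higher and 18 lower. Leaving out 1 KMH2 array gave 6 members higher and 2 lower each time, 4 to 8 and 12 to 16 other pathway genes, and 1571 to 2589 and 2029 to 2715 probe sets. It gave 0.75 to 0.90 for SHMT2 minus SHMT1, 1.17 to 1.23 for MTHFD2 minus MTHFD1, 0.91 to 0.95 for MTHFD1L minus MTHFD1 and -0.17 to -0.03 for ALDH1L2 minus ALDH1L1. For Ramos, leaving out 1 array gave 5 to 6 members higher and 0 to 1 lower, 16 to 22 and 10 to 16 other pathway genes, and 3504 to 4766 and 3531 to 4583 probe sets. The count of members lower in Ramos was 0 with the 5 arrays alone and with every probe set tested, named or not, again through MTHFD1. Directions that turned, in Ramos and in genes not called there, were those of ALDH1L2 (-0.0693 with quantile normalization and -0.0176 to 0.0249 leaving out 1 array), PSPH (-0.0909 to 0.932 leaving out 1 array), MTHFD2 (-0.191 to 0.322), EHMT2 (-0.333 to 0.035) and KDM4C (-0.0143 with quantile normalization, -0.006 with array weights and -0.0636 to 0.0656 leaving out 1 array). Where no value shows the cause of a change, the cause was not tested. Dim signals limit ALDH1L2, which a filter on dim probe sets removes.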
